A study of Mus musculus with 32 samples.

Results

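Pericytes and vascular smooth muscle cells together are the mural cells, which wrap the outside of brain vessels, and 10 of their genes were followed here through glial RNA libraries from a mouse model of amyotrophic lateral sclerosis. The genes were taken by name: 6 pericyte genes (Pdgfrb, Rgs5, Kcnj8, Abcc9, Vtn and Anpep) and 4 muscle genes (Acta2, Tagln, Myh11 and Des). They are 10 of 55291 genes listed in the tables of sorted astrocytes and of sorted oligodendrocytes, 10 of 53700 in the microglia table, and 9 of 17572 in the table of cultured astrocytes, where Abcc9 was not listed.

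The study sequenced polyA RNA from purified glia and cultured astrocytes, and all 32 libraries came from TDP-43_Q331K mice, which carry the Q331K mutant of the RNA-binding protein TDP-43. Astrocytes were purified by the antigen ACSA2, encoded by Atp1b2, from cortices and spinal cords at 3 months (4 libraries), 6 months (5) and 10 months (2). Oligodendrocyte-lineage cells were purified by the antigen O4 from the same tissues at 3 months (4) and 6 months (4). Microglia were purified by Cd11b from cortices only, at 3 months (3) and 10 months (4). Primary astrocytes were kept for 14 days, replated and given vehicle (3) or 40 µM Omomyc (3), a dominant-negative form of the transcription factor MYC, for 48 h. No group without the mutation was analysed here, so each comparison is between ages, cell types or treatments within the mutant genotype. No source used here says which promoter drives the transgene, or whether libraries came from separate animals or cultures. The p-values therefore measure the spread between these libraries, which may be partly technical.

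Pericytes sit on capillaries inside the vascular basement membrane, and smooth muscle cells ring the arterioles and contract to set blood flow. Endothelial cells recruit both by releasing the growth factor PDGF-B, which acts on the receptor encoded by Pdgfrb. Neither cell type is a target of the 3 sorts.

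Total counts were 6151583 to 20763190 per library in sorted astrocytes, 9752907 to 18598533 in sorted oligodendrocytes, 4145129 to 5612071 in microglia and 30117025 to 37470972 in cultures. Levels are given as CPM, the count divided by the library's effective size and scaled to 1000000. The effective size is the library's total over the genes kept for testing, multiplied by its TMM normalization factor, so CPM do not follow from the total counts alone. In the microglia libraries, 1 gene identifier with no symbol took 17.93 to 26.97% of the counts. Each sort held the markers of its target. The summed level of 7 astrocyte markers was 22670 to 34960 CPM in the ACSA2 libraries against 388.4 to 677.5 CPM in the O4 libraries, and the ACSA2 gene Atp1b2 alone was at 2726 to 4629 CPM against 43.52 to 82.78 CPM. Of 6 oligodendrocyte markers, the summed level was 71780 to 145500 CPM in the O4 libraries, and still 14550 to 33150 CPM in the ACSA2 libraries. The summed level of 6 microglia markers was 20510 to 37130 CPM in the Cd11b libraries. The 2 ACSA2 libraries at 10 months limit any comparison with that age.

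The promoter bases of 7 of the 10 genes were found in RefSeq's GRCm38.p6 table (Rgs5, Kcnj8, Abcc9, Vtn, Anpep, Acta2 and Des), and were searched for CArG-like elements. The CArG box is the site bound by serum response factor, which with its partner myocardin (Myocd) is the best known activator of smooth muscle contractile genes. The search took CC, then 6 letters of which at most 1 was not A or T, then GG, a 10-letter pattern that reads the same way on both strands, in a window of 300 bases from 250 before to 50 after the start. Only Acta2's window held a match, and it held 2, against 1 or more in 9.984% and 2 or more in 0.822% of 32851 promoters. The strict form, with all 6 central letters A or T, was in none of the 7 windows and in 1.629% of all promoters. The 250 bases before the start of Acta2 (chr19:34255374-34255623, minus strand) are shown with the 2 matches in capitals, which begin 84 and 34 bases before the start. The 250 bases before the start of Rgs5 (chr1:169655251-169655500, plus strand) are shown beside them as a pericyte gene with no match. These matches are letters in a window and say nothing of binding in these libraries.
Acta2: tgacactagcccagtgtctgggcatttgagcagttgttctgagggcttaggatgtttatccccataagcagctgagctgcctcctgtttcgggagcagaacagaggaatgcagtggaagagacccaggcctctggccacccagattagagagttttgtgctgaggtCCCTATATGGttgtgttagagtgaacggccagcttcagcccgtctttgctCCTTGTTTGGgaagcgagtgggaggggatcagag
Rgs5: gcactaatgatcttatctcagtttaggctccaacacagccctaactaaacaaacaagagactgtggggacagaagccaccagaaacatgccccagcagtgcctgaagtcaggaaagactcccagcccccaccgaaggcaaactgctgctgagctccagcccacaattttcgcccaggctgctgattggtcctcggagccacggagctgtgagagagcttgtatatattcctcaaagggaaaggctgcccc

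Which mural transcripts changed with age was asked first in the O4 libraries. Of the 9 members tested there, 8 rose between 3 and 6 months and none fell: the pericyte genes Pdgfrb, Rgs5, Abcc9 and Vtn and all 4 muscle genes. Their rises lay between 3.53-fold (Abcc9) and 6.29-fold (Myh11). Anpep did not pass the test, and Kcnj8 had too few counts to be tested. Abcc9, Tagln and Des passed the filter on low counts only through the older libraries, so a rise in them follows in part from how they were let in. The other 5 passed it at both ages. A gene was called changed at a Benjamini-Hochberg adjusted p under 0.05 in edgeR's quasi-likelihood test over all genes. By that rule 14.9% of the 14050 genes tested rose in this comparison, and 24.4% changed in either direction. In bulk libraries, a change in the number of cells of a type and a change in RNA per cell cannot be told apart.

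Pdgfrb, the receptor tyrosine kinase through which pericytes answer PDGF-B, was at 3.405, 5.438, 4.962 and 6.261 CPM in the 4 O4 libraries at 3 months and at 17.40, 18.47, 29.93 and 25.77 CPM at 6 months. All 4 older libraries were above all 4 younger ones. The log2 fold change was 2.19 ± 0.22 (SE, n = 4 and 4, edgeR adjusted p = 0.000266).

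Rgs5, a regulator of G protein signalling that is abundant in brain pericytes, was at 16.88, 26.98, 25.01 and 24.81 CPM at 3 months and at 65.62, 79.87, 157.0 and 168.0 CPM at 6 months. The groups did not overlap, and replicates 3 and 4 at 6 months were about level with each other and well above the other two. Its log2 fold change was 2.32 ± 0.33 (edgeR adjusted p = 0.0023).

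Vtn encodes vitronectin, an adhesive glycoprotein of the extracellular matrix that pericytes secrete. It was at 5.628, 6.515, 3.223 and 5.102 CPM at 3 months and at 12.46, 20.53, 37.68 and 31.67 CPM at 6 months, again with no overlap and with replicates 3 and 4 the highest. Vtn rose by 2.32 ± 0.36 on the log2 scale (edgeR adjusted p = 0.00277).

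Kcnj8 and Abcc9 encode the pore and the regulatory subunit of the vascular ATP-sensitive potassium channel, and they lie near each other on chromosome 6 (Kcnj8 at 142564837 to 142571614 and Abcc9 at 142587862 to 142702315, GRCm38, both on the minus strand). Abcc9 was at 0.8338, 0.8208, 0.7162 and 0.6184 CPM at 3 months and at 0.8092, 3.209, 4.468 and 2.075 CPM at 6 months. Here the groups overlapped, because replicate 1 at 6 months was as low as the younger libraries. The log2 fold change was 1.82 ± 0.45 (edgeR adjusted p = 0.015), and without replicate 2 at 6 months it was 1.70 with an adjusted p of 0.0504, which ends the call. Kcnj8 had 5, 2, 1 and 2 counts at 3 months and 5, 18, 13 and 3 counts at 6 months, so its groups overlapped as well.

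Anpep, which encodes the cell surface aminopeptidase CD13, was at 0.6949, 0.7695, 0.5627 and 2.319 CPM at 3 months and at 1.133, 0.7872, 2.085 and 0.9829 CPM at 6 months. The highest of all 8 values was from a younger library. The log2 fold change was 0.25 ± 0.50 (edgeR adjusted p = 0.745).

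Among the muscle genes, Acta2 encodes smooth muscle alpha actin, the thin filament protein of the contractile apparatus. It was at 6.949, 11.13, 20.10 and 24.97 CPM at 3 months and at 47.58, 64.55, 98.37 and 104.3 CPM at 6 months. The younger libraries spread widely, but the highest of them was below the lowest older one. The log2 fold change was 2.32 ± 0.42 (edgeR adjusted p = 0.00701).

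Myh11, the smooth muscle myosin heavy chain and the member most restricted to differentiated smooth muscle, was at 8.338, 14.57, 25.22 and 26.59 CPM at 3 months and at 86.58, 101.4, 141.0 and 141.2 CPM at 6 months. Its older libraries were all far above the younger ones. Myh11 rose by 2.65 ± 0.36 on the log2 scale (edgeR adjusted p = 0.00187), the highest estimate among the 9 members tested.

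Des encodes desmin, the intermediate filament of muscle that pericytes also make. It was at 0.2779, 0.8721, 2.507 and 1.933 CPM at 3 months and at 6.797, 5.571, 8.638 and 11.25 CPM at 6 months, without overlap, and the log2 fold change was 2.50 ± 0.48 (edgeR adjusted p = 0.00619). Tagln encodes transgelin, an actin-binding protein of smooth muscle. It was low throughout, at 0.1539 to 0.5411 CPM at 3 months and 1.295 to 1.966 CPM at 6 months, with a log2 fold change of 2.39 ± 0.39 (edgeR adjusted p = 0.00201). In the GENCODE vM21 annotation, 67.857% of Tagln's exon bases also lie in genes on the opposite strand, 62.425% of them in Gm48529 and 5.433% in Pcsk7. No source used here says whether reads were counted by strand, so the Tagln values are uncertain.

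**Figure D1:**
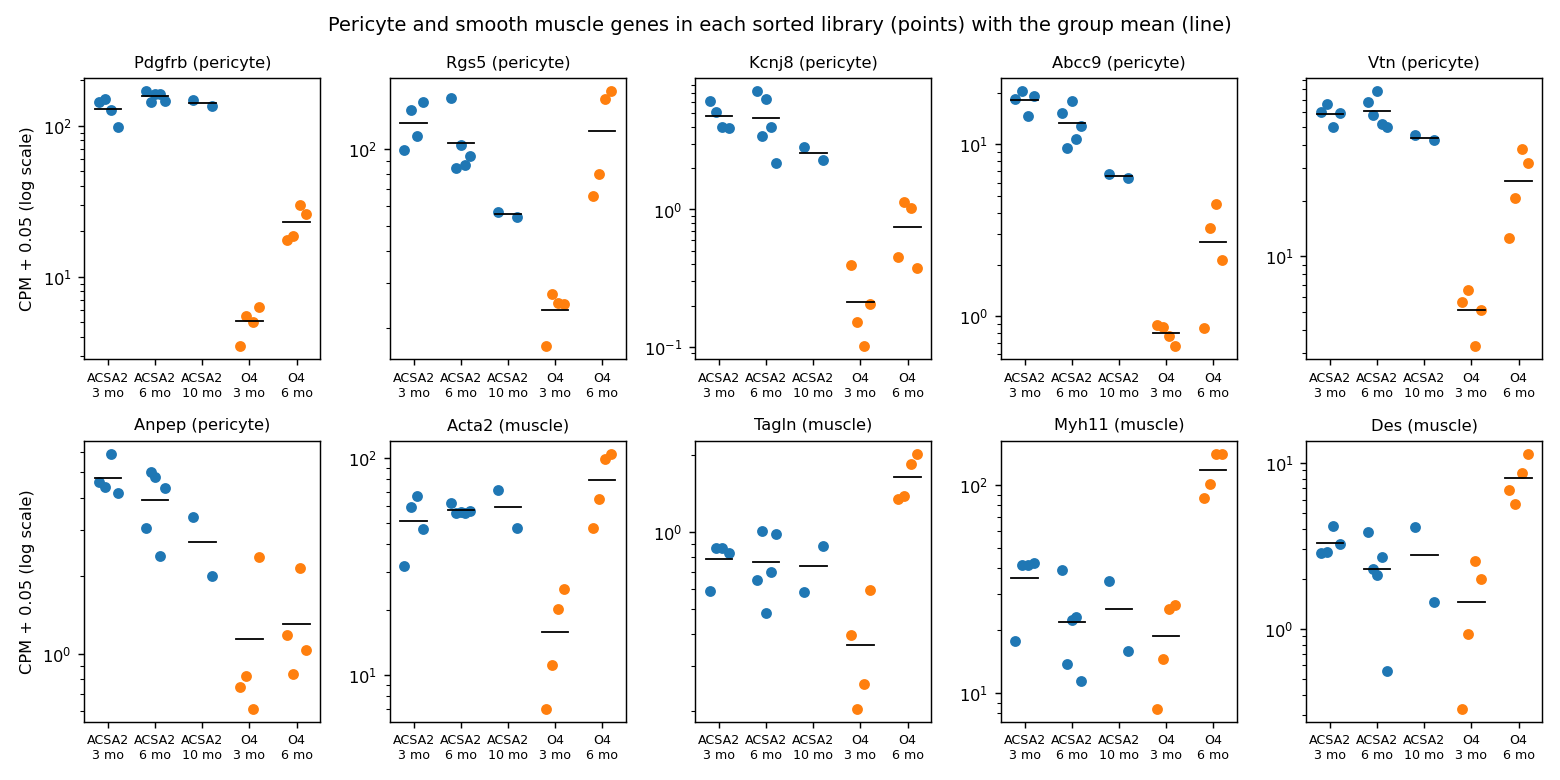
Levels of the 10 genes in CPM (plus 0.05, log axis) in every sorted library, with a point for each library in replicate order and a line at the group mean, blue for ACSA2 and orange for O4. In O4 libraries, Pdgfrb lay at 3.405 to 6.261 CPM at 3 months and 17.40 to 29.93 CPM at 6 months, and in ACSA2 libraries Rgs5 was lowest at 10 months (54.08 and 56.79 CPM).

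Other genes of the same cells, from lists chosen by name, were counted in the same comparison. Genes that passed the filter only through the older libraries were not set apart in these counts, or in those of other cell types' markers below. The counts of rises may thus follow in part from how genes were let in. Of 14 further pericyte genes tested, 9 rose and 1 fell, with a median log2 fold change of 2.11 against 0.02 over all genes tested. The 4 with the smallest p were Gper1 (2.49 ± 0.26, adjusted p = 0.000262), a G protein-coupled oestrogen receptor, Notch3 (2.54 ± 0.26, adjusted p = 0.000338), the Notch receptor of mural cells, Ndufa4l2 (2.79 ± 0.34, adjusted p = 0.000451) and Rgs4 (2.62 ± 0.31, adjusted p = 0.000585). The member that fell was Art3, an ADP-ribosyltransferase family gene (-1.08 ± 0.32, adjusted p = 0.0411).

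Of 22 further smooth muscle genes tested, 20 rose and 1 fell, with a median of 1.74. Those with the smallest p were Tpm2, the beta chain of tropomyosin (2.46 ± 0.25, adjusted p = 0.000266), Tinagl1, a basement membrane protein (2.54 ± 0.28, adjusted p = 0.000378), Cald1, the actin-binding protein caldesmon (0.96 ± 0.11, adjusted p = 0.000386) and Sncg, gamma-synuclein (1.73 ± 0.20, adjusted p = 0.00039). Myocd itself rose by 2.38 ± 0.49 (adjusted p = 0.00643), from 0.2847 ± 0.2232 CPM to 1.598 ± 0.6127 CPM (SD, n = 4 and 4). It passed the filter only through the older libraries, so its rise follows in part from how it was let in and is no support. The gene that fell was Ppp1r14a, an inhibitor of myosin phosphatase (-0.28 ± 0.09, adjusted p = 0.0456).

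Of 22 genes tested for signalling between endothelium and mural cells, 14 rose and 3 fell, with a median of 1.33. Acvrl1, an endothelial receptor for the TGF-beta family (2.71 ± 0.17, adjusted p = 4.86e-05), Pdgfb, the ligand of Pdgfrb (2.69 ± 0.24, adjusted p = 0.000185), Tgfbr2 (1.95 ± 0.20, adjusted p = 0.000262) and Edn1, the precursor of the vasoconstrictor endothelin (3.42 ± 0.36, adjusted p = 0.000317), had the smallest p among those that rose. The genes that fell were the integrin subunits Itgb3 (-1.16 ± 0.14) and Itgav (-0.52 ± 0.17) and the cadherin Cdh2 (-0.48 ± 0.07), with adjusted p of 0.000432, 0.0464 and 0.00133. This list shares Notch3 and Angpt1 with the pericyte list and Tek with the endothelial markers.

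Markers of other cell types moved in the same libraries. All 21 endothelial markers rose, with a median log2 fold change of 2.699, and their summed level was 136.5, 170.7, 140.0 and 182.3 CPM at 3 months and 509.0, 940.2, 1427 and 1079 CPM at 6 months. Within the older libraries replicate 1 was the lowest in this sum, and it was also the lowest in Pdgfrb, Rgs5, Vtn, Abcc9, Acta2, Tagln and Myh11. Des and Anpep were lowest in replicate 2 and Kcnj8 in replicate 4. Being lowest was not particular to the endothelial sum. Replicate 1 was also lowest in the sums of oligodendrocyte (89200 CPM), precursor (829.3 CPM), neuron (47.66 CPM), fibroblast (44.50 CPM) and microglia markers (39.49 CPM). It was not the lowest in astrocyte or choroid plexus markers. Fibroblast markers had 3 of 10 tested higher (Fmod, Igf2 and Lamc3) and 1 lower (Slc13a3), with a summed level of 55.51 to 87.58 CPM at 3 months and 44.50 to 64.04 CPM at 6 months. Neuron markers had 2 of 4 higher (Snap25 and Nefl), with sums of 24.32 to 40.43 CPM and 47.66 to 89.77 CPM. Choroid plexus markers had 0 of 6 called, with sums that varied from 35.56 to 900.4 CPM at 3 months and from 293.6 to 3821 CPM at 6 months. Of 6 oligodendrocyte markers 1 rose, the myelin gene Mbp, and 5 fell. The part of these other cells in the members' rise was not tested.

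In the ACSA2 libraries the same ages gave another picture. Between 3 and 6 months 0 of 9 members tested were called, where 14.6% of 16189 genes were. The unadjusted p was under 0.05 for 2 of them, Pdgfrb (log2 fold change 0.28 ± 0.11, edgeR adjusted p = 0.0908) and Abcc9 (-0.45 ± 0.16, edgeR adjusted p = 0.073). DESeq2 and limma-voom also called 0. Pdgfrb was at 142.4, 149.3, 126.2 and 97.94 CPM at 3 months and at 169.2, 142.9, 161.8, 161.7 and 146.6 CPM at 6 months, so the groups overlapped. One library decided a call in 3 cases: Pdgfrb passed without replicate 2 at 3 months (0.39, adjusted p = 0.0296), Rgs5 without replicate 1 at 6 months (-0.43, adjusted p = 0.0309) and Abcc9 without replicate 3 at 6 months (-0.59, adjusted p = 0.0295). Of the muscle genes, Acta2 was at 31.71, 59.60, 66.70 and 47.23 CPM at 3 months and at 61.75, 55.92, 56.61, 55.99 and 57.20 CPM at 6 months, a difference of 0.17 ± 0.17 on the log2 scale (edgeR adjusted p = 0.538). Myh11 had 17.80, 41.14, 41.16 and 41.99 CPM at 3 months and 38.82, 13.78, 22.30, 23.08 and 11.39 CPM at 6 months, and its groups overlapped too (-0.72 ± 0.39, edgeR adjusted p = 0.252).

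By 10 months, Rgs5 and Abcc9 had fallen in the ACSA2 libraries and no member had risen, which made 2 of 9 members tested lower against 11.2% of all genes lower and 22.7% changed in either direction. Rgs5 was at 98.58, 141.3, 112.1 and 151.9 CPM at 3 months and at 56.79 and 54.08 CPM at 10 months, with no overlap. Its log2 fold change was -1.19 ± 0.24 (n = 4 and 2, edgeR adjusted p = 0.00334). Abcc9 was at 18.34, 20.37, 14.67 and 19.00 CPM at 3 months and at 6.643 and 6.307 CPM at 10 months, also with no overlap, and its log2 fold change was -1.49 ± 0.24 (edgeR adjusted p = 0.000623). Both calls stood in every alternative fit run.

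The channel partner of Abcc9, Kcnj8, was at 6.148, 5.024, 3.940 and 3.841 CPM at 3 months and 2.786 and 2.226 CPM at 10 months. These groups did not overlap, but the test did not pass (-0.91 ± 0.41, edgeR adjusted p = 0.121). Vtn (-0.43 ± 0.16, edgeR adjusted p = 0.068) and Anpep (-0.83 ± 0.34, edgeR adjusted p = 0.0855) had negative estimates that also missed the threshold. With only the 3 and 10 month libraries in the fit, 4 members were lower, Kcnj8 and Vtn being added (adjusted p = 0.0393 and 0.0179).

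Pdgfrb was at 147.1 and 134.7 CPM at 10 months, inside the range at 3 months, with an estimate of 0.13 ± 0.14 (edgeR adjusted p = 0.535). Acta2 was at 71.04 and 47.77 CPM (0.22 ± 0.21, edgeR adjusted p = 0.497), Myh11 at 34.72 and 15.95 CPM and Des at 4.072 and 1.391 CPM, so the 2 libraries at this age stood well apart in the muscle genes. Without the higher of them the estimate for Acta2 was -0.09.

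Between 6 and 10 months only Abcc9 was called, as lower, where 0.334% of genes were lower and 0.908% changed in either direction. It was at 15.29, 9.453, 17.78, 10.73 and 12.74 CPM at 6 months, all above both 10 month values (-1.04 ± 0.23, n = 5 and 2, edgeR adjusted p = 0.0417). The call was lost without replicate 3 at 6 months (adjusted p = 0.0847), without replicate 1 at 10 months (0.192), without replicate 2 at 10 months (0.335), in limma-voom (0.0684), with a replicate block (0.127) and with only the 2 ages in the fit (0.0644). Rgs5 was just outside the threshold (-0.92 ± 0.23, edgeR adjusted p = 0.0712), although its 6 month values of 84.44 to 158.4 CPM were all above the 10 month values.

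Beside the fall of Rgs5 and Abcc9 at 10 months, 4 of 21 endothelial markers were lower than at 3 months (Kdr, Cdh5, Ptprb and Slco1a4) and none was higher, and their summed level was 803.1 to 1096 CPM at 3 months and 561.5 and 727.2 CPM at 10 months. Choroid plexus markers had 4 of 6 lower (Ttr, Kl, Clic6 and Kcnj13), with sums of 223.5 to 1486 CPM and of 15.77 and 54.22 CPM. Fibroblast markers had 2 of 13 lower (Dcn and Igf2) and 1 higher (Col1a1), astrocyte markers 1 of 7 lower (Slc1a2), microglia markers 1 of 5 higher (Cx3cr1), and neuron and precursor markers 0 of 4 each. Their part in the result was not tested. Of 19 further pericyte genes tested 1 was lower and 0 higher, the receptor gene Gper1 (-0.83 ± 0.28, adjusted p = 0.0382). Of 22 further smooth muscle genes 3 were higher and 0 lower: Susd5 (1.61 ± 0.47, adjusted p = 0.0217), Sncg (0.87 ± 0.30, adjusted p = 0.0463) and Kcnmb1, the beta subunit of the large-conductance potassium channel of smooth muscle (0.73 ± 0.24, adjusted p = 0.0371). Of 23 signalling genes 3 were higher (Heyl, Jag1 and Itgb5) and 2 lower (Tgfbr1 and Itgav). The medians of these 3 lists were -0.12, 0.12 and -0.32 against 0.02 over all genes.

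**Figure D2:**
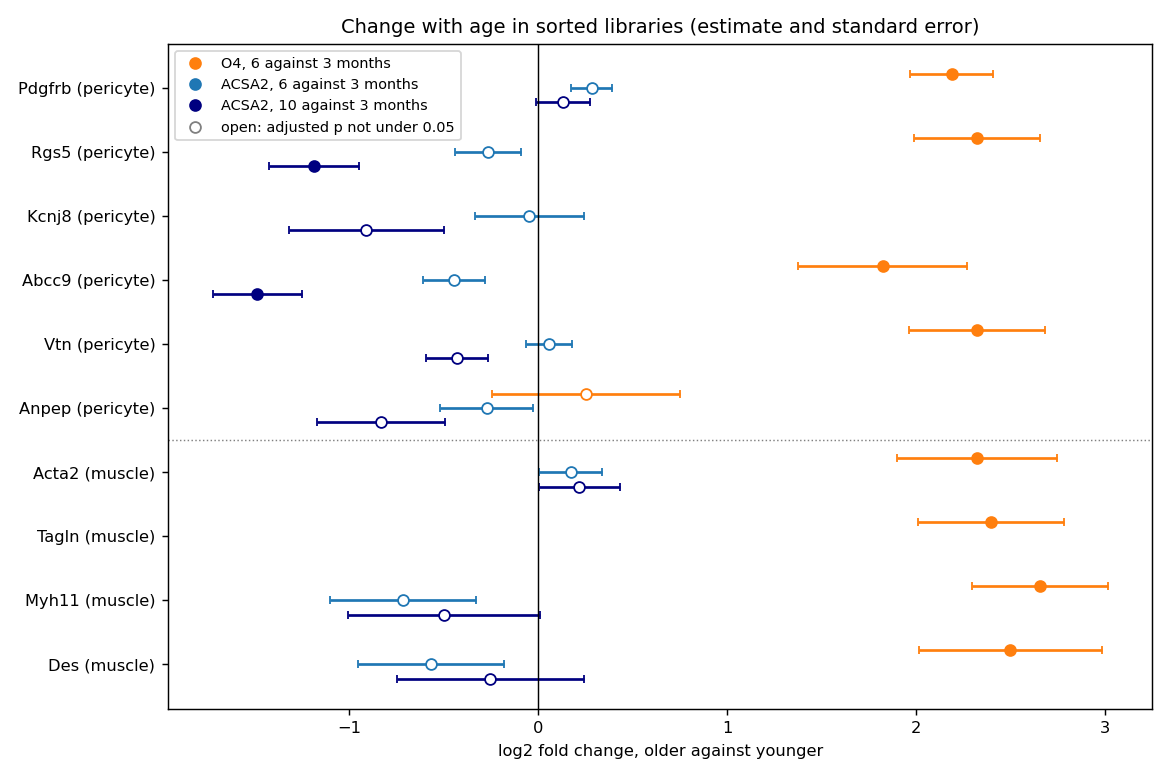
Log2 fold change with age for each gene, with standard error bars, in O4 libraries (6 against 3 months, orange) and ACSA2 libraries (6 against 3 months, blue, and 10 against 3 months, navy). Filled points passed an adjusted p of 0.05. The O4 estimates other than Anpep lay between 1.82 and 2.65, and Rgs5 (-1.19) and Abcc9 (-1.49) were the called falls in ACSA2 libraries; Kcnj8 in O4 and Tagln in ACSA2 were not tested.

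The difference between the 2 sorts in their change from 3 to 6 months was tested as an interaction in a joint fit of 17 libraries. The change was more positive in the O4 libraries for 9 of 10 members, against 9.97% of 16363 genes in that direction and 16.4% in either. Kcnj8 had too few counts to be tested within the O4 libraries and Tagln within the ACSA2 libraries, so nothing rests on them, and of the 8 members tested in both sorts 7 passed. The estimates were highest for Myh11 (3.28 ± 0.54 on the log2 scale, edgeR adjusted p = 0.000986) and Des (2.97 ± 0.63, adjusted p = 0.00348). For Pdgfrb the estimate was 1.82 ± 0.24 (adjusted p = 7.94e-05), for Rgs5 2.50 ± 0.39 (adjusted p = 0.000563) and for Acta2 2.06 ± 0.45 (adjusted p = 0.00623). Anpep was the exception (0.45 ± 0.53, adjusted p = 0.602). Kcnj8 passed narrowly (2.18 ± 0.70, adjusted p = 0.0374) and lost the call in 10 of 23 alternatives. All 21 endothelial markers passed this test in the same direction, with a median of 3.27.

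Set against each other at 3 months, the O4 libraries held less of Pdgfrb, Rgs5, Vtn and Acta2 than the ACSA2 libraries. Kcnj8, Abcc9 and Anpep were lower too, but at this age they reached the filter's level only in the ACSA2 libraries, so they support nothing about a difference. Of all genes, 34.2% were lower and 65% differed in either direction. Pdgfrb at 3 months was at 3.405 to 6.261 CPM in O4 against 97.94 to 149.3 CPM in ACSA2 libraries, a log2 difference of -4.31 ± 0.20 (edgeR adjusted p = 4.29e-13). Vtn differed by -3.15 ± 0.29 and Rgs5 by -2.05 ± 0.30. For the 3 let in through 1 sort the estimates were -4.50 ± 0.51 (Kcnj8), -4.20 ± 0.34 (Abcc9) and -1.79 ± 0.38 (Anpep). Acta2 differed less, by -1.33 ± 0.34 (edgeR adjusted p = 0.00274). Tagln (-0.94 ± 0.41, adjusted p = 0.0511), Des (-0.81 ± 0.47, adjusted p = 0.141) and Myh11 (-0.56 ± 0.40, adjusted p = 0.229) did not pass, and Tagln passed in 5 alternatives and Des in 2.

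At 6 months most members of the 2 gene groups differed in opposite directions, but at 3 months they already differed by unlike amounts. Of the 10 members, 5 reached the filter's level in both sorts at 3 months. Their log2 differences were -4.31 (Pdgfrb), -3.15 (Vtn) and -2.05 (Rgs5), and -1.33 (Acta2) and -0.56 (Myh11). No test was run between the gene groups. The medians over all members tested were -3.68 (pericyte) and -0.87 (muscle) at 3 months and -1.68 and 1.81 at 6 months. They include members that did not reach the filter's level in both sorts, so they are no support. At 6 months the pericyte genes Pdgfrb, Abcc9, Anpep and Vtn were lower in O4 libraries and the muscle genes Acta2, Myh11 and Des were higher. Of all genes, 36.6% were lower, 33.4% higher and 70% either. Pdgfrb differed by -2.49 ± 0.17 (edgeR adjusted p = 1.11e-10), Abcc9 by -2.01 ± 0.29, Anpep by -1.34 ± 0.37 and Vtn by -0.98 ± 0.25. Rgs5 did not pass (0.44 ± 0.26, adjusted p = 0.146), with 65.62 to 168.0 CPM in O4 and 84.44 to 158.4 CPM in ACSA2 libraries, and it passed as higher when replicate 1 of either group was left out (0.66 and 0.64, adjusted p = 0.0341 and 0.0311). Myh11 was higher in O4 libraries by 2.72 ± 0.37 (adjusted p = 1.01e-05), at 86.58 to 141.2 CPM against 11.39 to 38.82 CPM. Des was higher by 2.16 ± 0.42 (adjusted p = 0.000137). At this age Kcnj8 (-2.33 ± 0.40) reached the filter's level only in the ACSA2 libraries and Tagln (1.46 ± 0.32) only in the O4 libraries, so the direction of each follows in part from how it was let in and is no support.

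Acta2 at 6 months was the weakest of the muscle differences, at 47.58 to 104.3 CPM in O4 and 55.92 to 61.75 CPM in ACSA2 libraries, which overlapped (0.73 ± 0.30, edgeR adjusted p = 0.0412). Its call was lost with no filter on low counts (adjusted p = 0.131), without O4 replicate 3 (0.116) or 4 (0.126), and without ACSA2 replicate 2, 3, 4 or 5 (0.0592, 0.0572, 0.0575 and 0.0607). In the further lists, of 23 smooth muscle genes tested, 18 were higher in O4 libraries and 3 lower, Kcnmb1, Synpo2 and Sncg (median 1.68). Of 19 pericyte genes 5 were higher, Foxs1, Gja4, Art3, Gper1 and Mcam, and 7 lower (median -0.58), beside a median of -0.03 over all genes. Endothelial markers had 19 of 21 higher and 1 lower, Slco1c1 (median 1.66). At 3 months the same lists had 6 higher and 12 lower (smooth muscle), 2 higher, Art3 and Mcam, and 14 lower (pericyte) and 0 higher and 21 lower (endothelial). Genes that reached the filter's level in 1 sort only were not set apart in the list counts at either age.

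**Figure D3:**
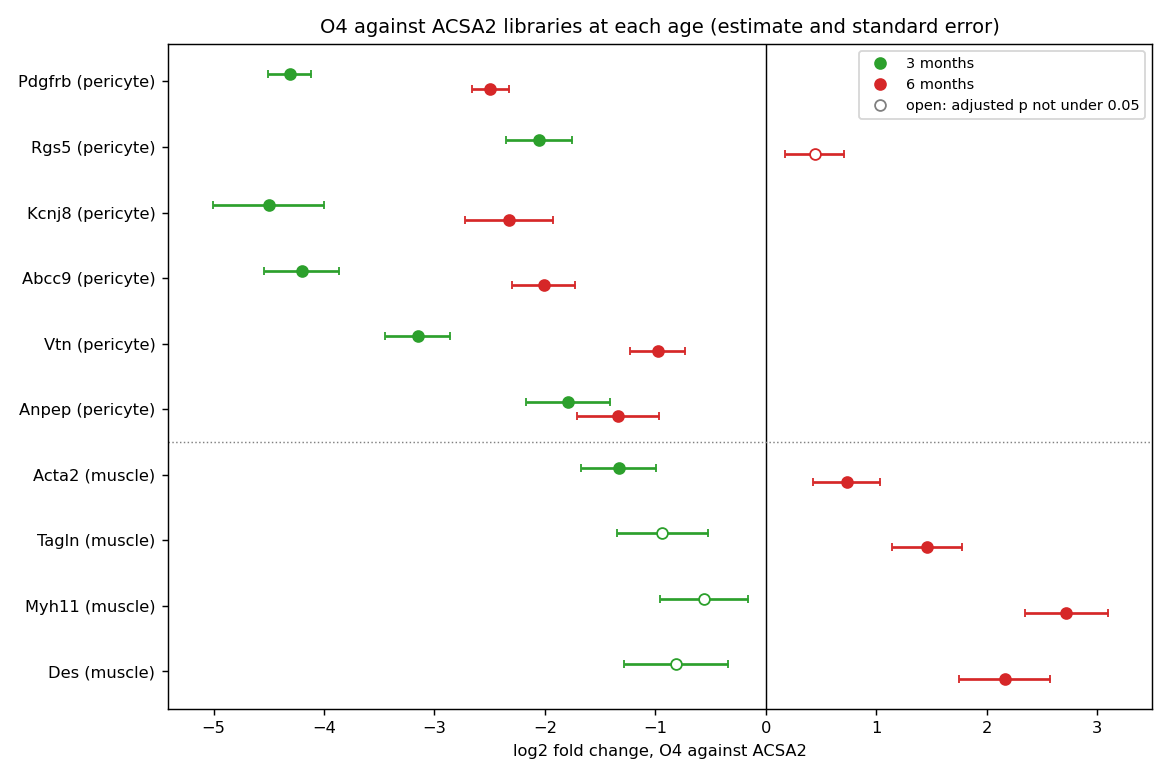
Log2 difference between O4 and ACSA2 libraries for each gene at 3 months (green) and 6 months (red), with standard error bars and filled points for an adjusted p under 0.05. At 6 months the muscle genes lie to the right of 0 (0.73 to 2.72) and the pericyte genes other than Rgs5 to the left (-2.49 to -0.98); Kcnj8 and Tagln reached the filter's level in 1 sort only.

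Levels of different genes were compared per length, in TPM, which divides each count by the transcript's length before scaling to the library. In ACSA2 libraries at 3 months the order of mean TPM was Vtn (96.4 ± 12.6, SD, n = 4), Rgs5 (92.4 ± 19.1), Pdgfrb (78.4 ± 14.5), Acta2 (77.9 ± 23.7), Myh11 (15.6 ± 5.27), Abcc9 (7.20 ± 1.05), Kcnj8 (6.19 ± 1.40), Anpep (3.78 ± 0.60), Des (2.86 ± 0.50) and Tagln (1.24 ± 0.23). The first 4 overlapped in their ranges, as did Myh11 with Abcc9, Abcc9 with Kcnj8 and Anpep with Des. In O4 libraries at 6 months the order was Acta2 (119 ± 41.4 TPM, n = 4), Rgs5 (86.4 ± 38.8), Myh11 (51.7 ± 12.6), Vtn (42.1 ± 19.3), Pdgfrb (14.0 ± 3.98) and Des (7.18 ± 2.18), with the other four at 0.91 to 2.68 TPM. The ranges of Acta2, Rgs5 and Myh11 overlapped each other in turn, Vtn's range (21.80 to 64.84 TPM) held that of Myh11 (40.47 to 64.84 TPM) and reached into that of Rgs5, and that of Pdgfrb was below that of Vtn.

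The balance of the 2 groups was followed as the ratio of summed pericyte TPM to summed muscle TPM in each library, with no test. It was 4.652, 2.862, 2.060 and 3.013 in ACSA2 libraries at 3 months, 3.035, 2.706, 3.272, 2.616 and 2.675 at 6 months, and 1.678 and 2.409 at 10 months. In O4 libraries it was 1.666, 1.434, 0.622 and 0.6266 at 3 months and 0.6835, 0.714, 0.9011 and 0.826 at 6 months. Every ACSA2 library thus had a higher pericyte sum than muscle sum, and every O4 library at 6 months a lower one. The sums cover 6 and 4 named genes, so where the ratio lies against 1 depends on which genes were listed. At 3 months the O4 libraries lay on both sides: replicates 1 and 2 were above 1 and replicates 3 and 4 below. Those 2 pairs differed mainly in the muscle sum, which was 17.35 and 27.93 TPM in replicates 1 and 2 and 52.44 and 59.55 TPM in replicates 3 and 4, while the pericyte sum was 28.89, 40.04, 32.61 and 37.32 TPM.

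**Figure D4:**
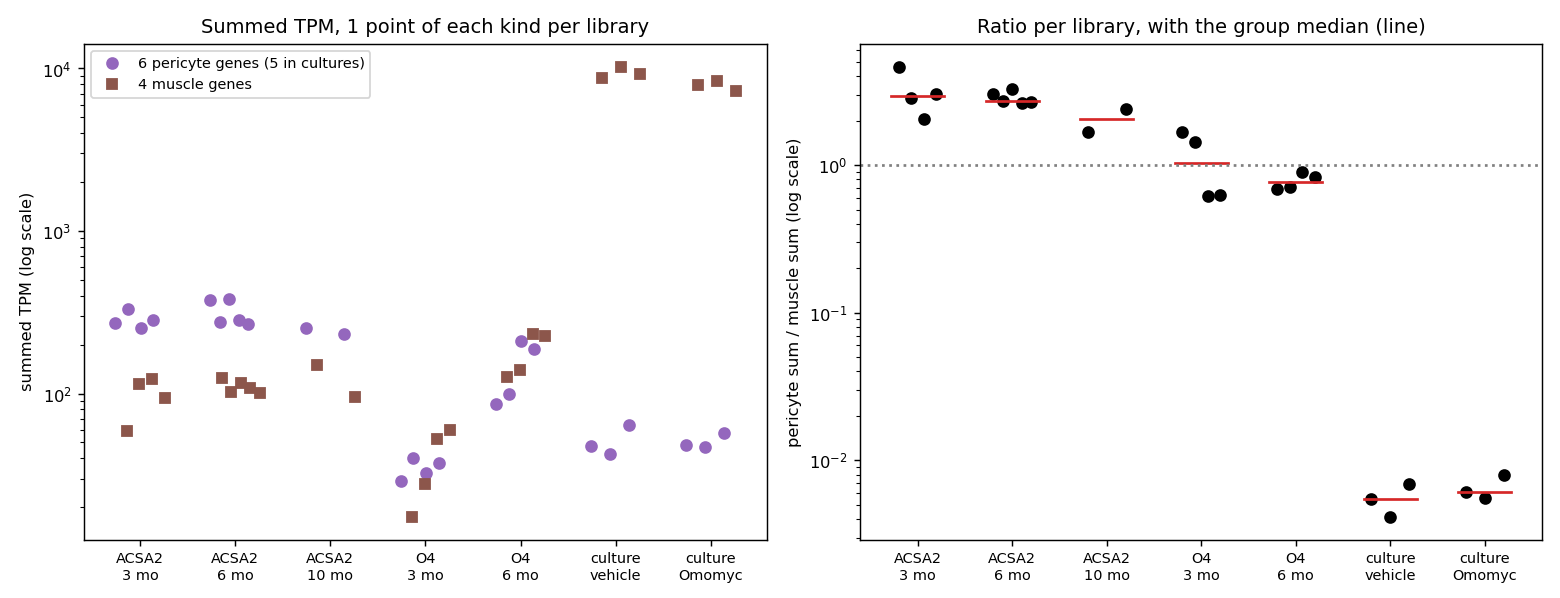
Summed TPM of pericyte genes (purple circles) and muscle genes (brown squares) in each library, left, and their ratio with the group median as a red line, right, both on log axes. The median ratio was 2.94, 2.71 and 2.04 in ACSA2 libraries at 3, 6 and 10 months, 1.03 and 0.77 in O4 libraries at 3 and 6 months, and 0.0054 and 0.0061 in vehicle and Omomyc cultures. The culture sums hold 5 pericyte genes, as Abcc9 was not listed, and their TPM were computed apart from the deposited ones of the sorts.

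Cultured astrocytes had a different set of mural transcripts. Acta2 was at 2866, 3831 and 3361 CPM in vehicle cultures and Tagln at 2110, 2563 and 2058 CPM, while Myh11 was at 1.644, 1.695 and 1.782 CPM and Des at 0.09866, 0.2824 and 0.8593 CPM. Per length, Acta2 was at 5409 ± 560 TPM and Tagln at 4001 ± 330 TPM in these cultures (SD, n = 3). In the sorted groups the means were 27.8 to 119 TPM for Acta2 and 0.60 to 2.68 TPM for Tagln. The culture TPM were computed apart from the deposited ones, whose gene models no source used here names. The levels are therefore set side by side without a test. Among the further smooth muscle genes, Cnn1, the actin-binding protein calponin, was at 301.7 to 365.0 CPM in vehicle cultures and Myl9, a myosin regulatory light chain, at 413.4 to 528.1 CPM, and Myocd was not listed in the table.

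Of the pericyte genes in vehicle cultures, Pdgfrb was at 61.07, 57.90 and 79.31 CPM and Anpep at 4.374, 4.613 and 10.63 CPM. Rgs5 was at 2.565, 2.730 and 2.069 CPM, and Kcnj8 and Vtn were at 0.4456 CPM or less in each vehicle culture. Replicate 3 was the highest for Pdgfrb and Anpep under vehicle, and again under Omomyc (70.66 and 8.971 CPM). Fibroblast markers were likewise highest in replicate 3, with sums of 2366, 2494 and 4842 CPM under vehicle and 2517, 2454 and 4621 CPM under Omomyc. So were microglia markers, at 1007, 1102 and 1760 CPM under vehicle and 1146, 1347 and 2213 CPM under Omomyc. Choroid plexus markers were also highest there, at only 14.61 and 13.54 CPM. The part of such cells in Pdgfrb and Anpep was not tested. The culture table lists only 17572 genes, among them 15 of the 16 fibroblast and 15 of the 21 endothelial markers. None of those listed was at 0 in any culture, but neither was any listed neuron or choroid plexus marker. The lack of 0 values may thus follow from which genes were listed. The 15 listed endothelial markers summed to 383.9, 345.2 and 278.7 CPM in vehicle cultures, and Slco1a4 alone made 167.0 to 288.3 CPM of that. Astrocyte markers summed to 4143 to 4885 CPM.

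Whether blocking MYC changed these genes was asked by the Omomyc cultures. None of 7 members tested was called with Omomyc, where 0.0186% of 16119 genes (3 genes) were, and the unadjusted p was under 0.05 for Tagln alone. DESeq2 and limma-voom also called 0 members. Acta2 was at 2582, 3003 and 2595 CPM with Omomyc, where 2 of 3 were below all vehicle cultures (-0.30 ± 0.13, n = 3 and 3, edgeR adjusted p = 0.779). Tagln was at 1888, 1878 and 1660 CPM, below all 3 vehicle cultures (-0.31 ± 0.11, edgeR adjusted p = 0.744). Myh11, at 1.059, 1.622 and 1.540 CPM, was also below all 3 (-0.28 ± 0.22, edgeR adjusted p = 0.857). Des (0.1816, 0.3742 and 0.6485 CPM, -0.03 ± 0.75, edgeR adjusted p = 0.998) and Anpep (4.327, 4.054 and 8.971 CPM, -0.17 ± 0.45, edgeR adjusted p = 0.960) overlapped the vehicle cultures, and Kcnj8 and Vtn had too few counts to be tested. With the replicate number as a block, 656 genes were called in place of 3, and still 0 members, with adjusted p of 0.0709 for Acta2 and 0.0641 for Tagln at nearly the same estimates (-0.29 and -0.31). Pdgfrb was at 60.89, 60.75 and 70.66 CPM (-0.04 ± 0.13, edgeR adjusted p = 0.966) and Rgs5 at 3.268, 2.682 and 2.999 CPM (0.28 ± 0.18, edgeR adjusted p = 0.837), overlapping the vehicle cultures. Of the further lists, 0 of 16 pericyte, 0 of 18 smooth muscle and 0 of 21 signalling genes were called.

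In the Cd11b libraries, which count tags near the 3' end of transcripts, the members had few counts. The 6 pericyte genes summed to 5.149 to 36.58 CPM and the 4 muscle genes to 2.262 to 9.050 CPM per library. Rgs5 led with 87, 57 and 90 counts at 3 months and 17, 151, 57 and 33 counts at 10 months, and the groups overlapped (log2 fold change -0.48 ± 0.53, edgeR adjusted p = 0.711). Acta2 had 10, 10 and 8 counts at 3 months and 7, 34, 24 and 9 at 10 months (0.77 ± 0.82, edgeR adjusted p = 0.702). Of the 4 members with enough counts to test (Rgs5, Abcc9, Vtn and Acta2), 0 were called, against 3.21% of 12320 genes, and 0 had an unadjusted p under 0.05, with 0 also called by limma-voom and by DESeq2, which gave an adjusted p for 1 of them. Anpep had 0 counts in all 7 libraries, which at 3 counts as the limit for a count of 0 says only that it was not detectable at this depth. Des had 12 counts in 1 library at 3 months, 6 in 1 at 10 months and 0 in all others. Myh11 had 0, 0 and 3 counts at 3 months and 13, 2, 22 and 5 at 10 months. Tagln had 0 in all at 3 months and 5, 2, 4 and 0 at 10 months. Pdgfrb had 5, 1 and 8 counts, then 3, 18, 8 and 0, and Kcnj8 had 1, 0 and 5, then 0 in all. These genes had too few counts to be tested, and their ranges at the 2 ages overlapped.

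How far other transcripts followed these genes from library to library was described by the correlation of log2 CPM deviations from the group mean over the 19 sorted astrocyte and oligodendrocyte libraries, among 10775 genes with a mean of at least 5 CPM. Libraries of a sort share its tissue and protocol but differ in depth, so the values are descriptions. The genes most like Acta2 were Ntn4 (Pearson r = 0.947), which encodes a netrin of basement membranes, the myosin light chain Myl9 (0.927), the caveolar coat gene Cavin1 (0.881), Fbln5 (0.880), an elastic fibre protein, and Fam118a (0.877). The genes most like Pdgfrb were Slc35g2 (0.922), Irf2bpl (0.875), Mical1 (0.833), Eogt (0.821) and Plxnd1 (0.820). Among the members themselves, the value for Acta2 was 0.780 with Myh11, 0.667 with Des, 0.653 with Pdgfrb, 0.611 with Rgs5, 0.444 with Anpep, 0.341 with Tagln, 0.171 with Abcc9, 0.155 with Vtn and -0.266 with Kcnj8. Des, Anpep, Tagln and Kcnj8 were below the mean of 5 CPM, so little can be read from their values. Of the others, Myh11 was the highest and the pericyte genes ran from 0.653 to 0.155. Pdgfrb with Rgs5 gave 0.615.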

How the data were processed

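The members and gene lists were chosen with earlier results of these data known. Deposited counts per gene were used for sorted astrocytes, sorted oligodendrocytes, microglia and cultures, and the deposited TPM, which the authors computed, for levels per length in sorted cells. Per the submitters' processing notes, reads were handled with STAR 2.7.7a, featureCounts 2.0.1, fastp, UMI-tools 1.0.1 and DESeq2, and the notes name mm10, GRCm38.p6 and GRCm39. No source used here ties a build or a strand setting to a table. Astrocyte and oligodendrocyte libraries carry molecular identifiers and cover whole transcripts, and microglia libraries count 3' tags, per the labels' protocols. The tables of normalized microglia and culture values were not used.

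Counts were tested with edgeR 4.0.16 (R 4.3.3): TMM scaling, filterByExpr with a minimum count of 10, robust quasi-likelihood F test, Benjamini-Hochberg adjustment over all genes tested, called at 0.05. Astrocyte ages shared 1 fit, and cell types were compared in a joint fit of 17 libraries at 3 and 6 months. The standard error is the log2 fold change divided by the root of F, an approximation. The rule named all 10 members in every comparison, up to 4 genes of each mural list with the smallest p in the oligodendrocyte age comparison, the 5 genes most like Pdgfrb and Acta2, and Atp1b2 as a level. Other genes named beside a short count of a list, and Myocd, Cnn1, Myl9 and Slco1a4, were named after their values were seen. TPM of cultures were computed from counts and GENCODE vM21 exon lengths, found for 17559 of 17572 genes. Promoter bases are RefSeq's (GRCm38.p6).

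Alternatives were DESeq2 1.42.0, limma-voom (limma 3.58.1), RLE scaling, filtering at 1 CPM or not at all, a replicate block, only the 2 ages compared, and leaving out each library. Where that leaves 1 library in a group, it is assumed to vary like the others. The code was tested on simulated data. Same-numbered vehicle and Omomyc cultures deviated together (r = 0.628, 0.432 and 0.682 for the 3 pairs), so the data pair them, though no label says why. No 2 libraries of a group agreed within sampling noise. The oligodendrocyte markers in ACSA2 libraries at 10 against 3 months are not reported here.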

Additional observations from a re-analysis of the deposited data

Results flagged for a closer look

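In 6 of 48 sets of values tested (1 gene in 1 group of 4 or 5 libraries), 1 library lay further from the rest than Dixon's 95% limit, which chance gives in about 1 of 20 sets. Replicate 1 of the ACSA2 libraries at 3 months was the lowest in Myh11 (17.8 CPM) and in Tagln (0.5393 CPM). For Tagln that was 5 counts where the others had 6, 6 and 15, so little can be read from it. Replicate 1 of the ACSA2 libraries at 6 months was the highest in Acta2 (61.75 CPM) and in Rgs5 (158.4 CPM). The other two were Anpep in replicate 4 of the O4 libraries at 3 months (2.319 CPM) and Des in replicate 2 of the microglia at 10 months (1.097 CPM, 6 counts where the other three had 0).

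The change from 3 to 6 months differed between O4 and ACSA2 libraries by the interaction test for 9 members. The difference on the log2 scale, O4 minus ACSA2, was 1.82 for Pdgfrb, 2.50 for Rgs5, 2.18 for Kcnj8, 2.19 for Abcc9, 2.17 for Vtn, 2.06 for Acta2, 2.40 for Tagln, 3.28 for Myh11 and 2.97 for Des, where 9.97% of all genes passed in that direction (edgeR). Kcnj8 had too few counts to be tested within the O4 libraries and Tagln within the ACSA2 libraries, so nothing rests on their values.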

How the results depend on the processing

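Of 1157 alternative values of single members, 1089 kept their direction and their side of the threshold. The 36 called results kept their direction in all 591 of their alternatives and lost the call in 24, all in 4 results: Abcc9 in O4 libraries, Abcc9 between 6 and 10 months in ACSA2 libraries, Acta2 between sorts at 6 months and Kcnj8 in the interaction, as given in the report. The number of members called was 0 to 1 with libraries left out in turn for ACSA2 at 6 against 3 months (0 with all). For 10 against 3 months it was 4 in place of 2 with only those ages in the fit. For 10 against 6 months (1 in the report) it was 3 with no filter, 2 with DESeq2, 0 with limma-voom, 0 with the replicate block, 0 with only those ages, and 0 to 2 with libraries left out. The cause was not tested.

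The results that changed sign were all uncalled in both fits. In ACSA2 libraries at 6 against 3 months, Kcnj8 was 0.12 with the replicate block and -0.23 to 0.15 with libraries left out, and Vtn -0.052 to 0.14. At 10 against 3 months Acta2 ranged from -0.095 to 0.48 and Des from -1.20 to 0.34. At 10 against 6 months Acta2 ranged from -0.27 to 0.31, Myh11 from -0.44 to 0.68 and Des from -0.63 to 0.91, with -0.0074 for Des under the block. Anpep in O4 libraries ranged from -0.16 to 0.88, and Abcc9 in microglia was -0.54 under the block. In cultures Pdgfrb ranged from -0.13 to 0.11, Anpep from -0.64 to 0.37 and Des from -0.58 to 1.07, with 0.26 for Des in limma-voom and 0.0027 under the block.

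The count over all genes moved by more than 1.5 times in some alternatives. It was 1161 to 2637 with libraries left out against 2359 (ACSA2, 6 against 3 months), 1052 to 3713 against 3674 (10 against 3 months), and 11 to 320, 578 with no filter, 609 with DESeq2 and 56 with the block against 147 (10 against 6 months). In O4 libraries it was 2214 without replicate 1 at 3 months against 3425. In microglia it was 51 to 396 with libraries left out, 730 with no filter, 748 with DESeq2 and 211 with the block against 395. In cultures it was 0 to 1 with libraries left out, 0 at a filter of 1 CPM, 97 with DESeq2 and 656 with the block against 3.

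Outside the cultures, same-numbered libraries did not deviate together (r from -0.175 to 0.176), so the numbers do not pair them. There the block left 8 members called in O4 libraries and 9 in the interaction, and changed Kcnj8 in ACSA2 libraries at 10 against 3 months to called (-1.04, adjusted p = 0.0444). Only 2 of 8 ACSA2, 3 of 8 O4 and 2 of 6 microglia libraries correlated best with their own number in the other age, against 6 of 6 cultures. Depth limits Kcnj8, Anpep, Tagln and Des, which had few counts in O4 libraries, and nearly all members in microglia. Culture and sort levels come from separate tables and carry no test.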
